A study of Mus musculus with 25 samples.

Results

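The 34 genes described here are a curated set of the glycolytic enzymes, glucose and lactate transporters, and genes of the cellular response to low oxygen. They were picked by name out of 30749 genes measured by RNA sequencing of macrophages sorted from mouse glioblastoma, and all 34 had a row in the table. No threshold was put on their values, but earlier results of these data were known when they were chosen. Sorted cells were of 2 kinds, MDM (monocyte-derived macrophages) and microglia, and came from type 2 and type 1 tumours, each of which was either transplanted or spontaneous. MDM were represented by 2 libraries from type 2 transplanted tumours, 1 from a type 2 spontaneous tumour, 4 from type 1 transplanted and 2 from type 1 spontaneous tumours, and microglia by 3 libraries from each of these 4 tumour classes. The genotype, strain and age of the mice, the alleles or cells that start each tumour type, and the gates of the sort were not given in the sources used here. Microglia of normal brain are also part of the study and were not analysed here. The labels do not say whether replicates stand for separate animals, so the p-values below measure the spread between libraries, part of which may be technical.

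Glycolysis splits glucose into pyruvate in the cytosol. Its irreversible steps are catalysed by hexokinase, phosphofructokinase and pyruvate kinase, each encoded by several genes with tissue-specific use. When oxygen is low, prolyl hydroxylases (Egln genes) no longer mark the factor HIF-1α for destruction, and it then binds a short element containing ACGTG or GCGTG near its target genes, among them most glycolytic enzymes, Vegfa, Bnip3 and P4ha1. Macrophages also raise glycolysis without low oxygen when they are activated by microbial products or cytokines, and much of HIF-1α regulation happens to the protein, which RNA levels do not show.

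Total reads per library lay between 26530069 and 50365607. Values are normalised counts, that is reads divided by a size factor of the library, and were recovered exactly from the deposited table. The labelled cell types could be checked with marker genes. The summed level of 5 microglia markers (Tmem119, P2ry12, Sall1, Siglech, Gpr34) was 4599 to 63976.5 in MDM and 155767 to 578284 in microglia, and that of the 6 MDM markers (Ccr2, Itga4, S100a4, Ly6c2, Plac8, Crip1) was 35979 to 220582 in MDM and 506 to 15021 in microglia. None of either list was at 0 in the group that should lack it. Transcripts of T and NK cells moved with the cell type: all 12 markers were called higher in MDM, with sums of 9275 to 275115 in MDM and 97.3 to 5216 in microglia. They were unevenly spread, since the 4 type 1 transplanted MDM libraries (200979 to 229830) and type 2 transplanted MDM replicate 1 (275115) stood apart from the other 4 MDM libraries (9275 to 35424). Sums for dendritic cell markers were 3854 to 42840 in MDM and 59.6 to 1497 in microglia, for B cell markers 618 to 40711 in MDM and 544 to 2674 in microglia, and for astrocyte and neural stem cell markers 221 to 1710.1 in MDM and 4469 to 12147 in microglia. Each result below that rests on the 5 T and NK rich libraries is given with and without them where the design allows it. Leaving them out removes every type 1 transplanted MDM library, so the difference is then an average over the other 3 classes, and it is also given for these 3 classes with all libraries in the fit where the call changed.

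The promoter stretches below are marked for the letters of the element that HIF-1α binds, without knowledge of its use there. These stretches come from 4 genes that were lower in MDM and from 2 glycolytic genes that were not called. They are the last 150 bases before a start site annotated in RefSeq (build GRCm38.p6), printed 5′ to 3′ on the strand of the gene. Capitals mark ACGTG or GCGTG read on either strand, so CACGT and CACGC are the same letters on the other strand, and overlapping matches run together.
Hk2 (chr6:82774455-82774604, minus strand): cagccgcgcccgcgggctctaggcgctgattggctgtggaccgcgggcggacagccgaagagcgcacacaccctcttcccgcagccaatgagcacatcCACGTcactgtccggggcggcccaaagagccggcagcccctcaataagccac
Pfkl (chr10:78009808-78009957, minus strand): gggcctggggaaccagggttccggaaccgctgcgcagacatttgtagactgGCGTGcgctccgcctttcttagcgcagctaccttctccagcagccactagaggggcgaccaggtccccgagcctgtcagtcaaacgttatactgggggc
Pdk1 (chr2:71873074-71873223, plus strand): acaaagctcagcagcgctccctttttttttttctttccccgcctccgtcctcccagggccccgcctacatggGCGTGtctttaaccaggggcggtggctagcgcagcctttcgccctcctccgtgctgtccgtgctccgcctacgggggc
Bnip3 (chr7:138909507-138909656, minus strand): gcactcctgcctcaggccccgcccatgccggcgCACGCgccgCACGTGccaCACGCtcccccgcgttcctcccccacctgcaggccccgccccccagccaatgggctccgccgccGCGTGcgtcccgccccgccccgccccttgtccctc
Pgk1 (chrX:106186950-106187099, plus strand): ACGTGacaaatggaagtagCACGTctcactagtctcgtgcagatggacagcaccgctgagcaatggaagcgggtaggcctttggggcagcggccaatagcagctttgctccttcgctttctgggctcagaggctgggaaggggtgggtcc
Pgam1 (chr19:41911721-41911870, plus strand): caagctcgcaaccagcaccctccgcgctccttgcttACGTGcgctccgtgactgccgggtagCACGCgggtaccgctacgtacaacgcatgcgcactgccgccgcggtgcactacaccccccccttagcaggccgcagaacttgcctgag

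Within the 250 bases before the start site, 28 of the 32 members with a promoter sequence (87.5%) held at least 1 of these motifs, against 56.4% of 13114 tested genes with such a sequence. A gene with several start sites counted if any of them had a match. By start site it was 36 of 47 in members, against 38.6% of all 32851, tested genes or not. Members were chosen as genes of glycolysis and the low-oxygen response, so their share is not independent of that choice. ACGTG alone was present in 19 members (59.4%), against 23.6% of the tested genes. Bnip3 and one window of Ldha each held 5 matches. Eno2, Gpi1, Mif and Tpi1 held none in this window, and Slc2a3 and Ndrg1 had no sequence in the table. Genes called higher in MDM (Pfkp, with 3 matches, and Ankrd37, with 4) and genes called lower (Bnip3, with 5, and P4ha1, with 3) both carried the motif, and so did members without a call such as Pgk1 and Pgam1. A match is a string of letters and shows nothing about binding in these cells.

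The first question was how the glycolysis and hypoxia genes differ between MDM and microglia. At the top of the pathway MDM had more RNA of the isoenzyme genes Hk1, Pfkp and Aldoc and less of Hk2 and Pfkl than microglia, while none of the 6 genes from Gapdh to Pkm was called. The hypoxia genes did not move one way: Ndrg1, Ddit4, Ankrd37 and Vegfa were higher in MDM, and P4ha1, Bnip3 and Pdk1 were lower. In a fit over all 8 groups that averaged the differences of the 4 tumour classes with equal weight, 14 of the 34 members had an adjusted p under 0.05 (8 were higher and 6 were lower in MDM). Of all 17216 genes tested, 42.7% were called (23% higher and 19.8% lower), so members were called about as often as genes at large. The median log2 fold change was 0.00 over the members and 0.07 over all tested genes. In these sorted bulk samples, a change in the share of a contained cell type and a change of RNA per cell cannot be told apart.

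**Figure D1:**
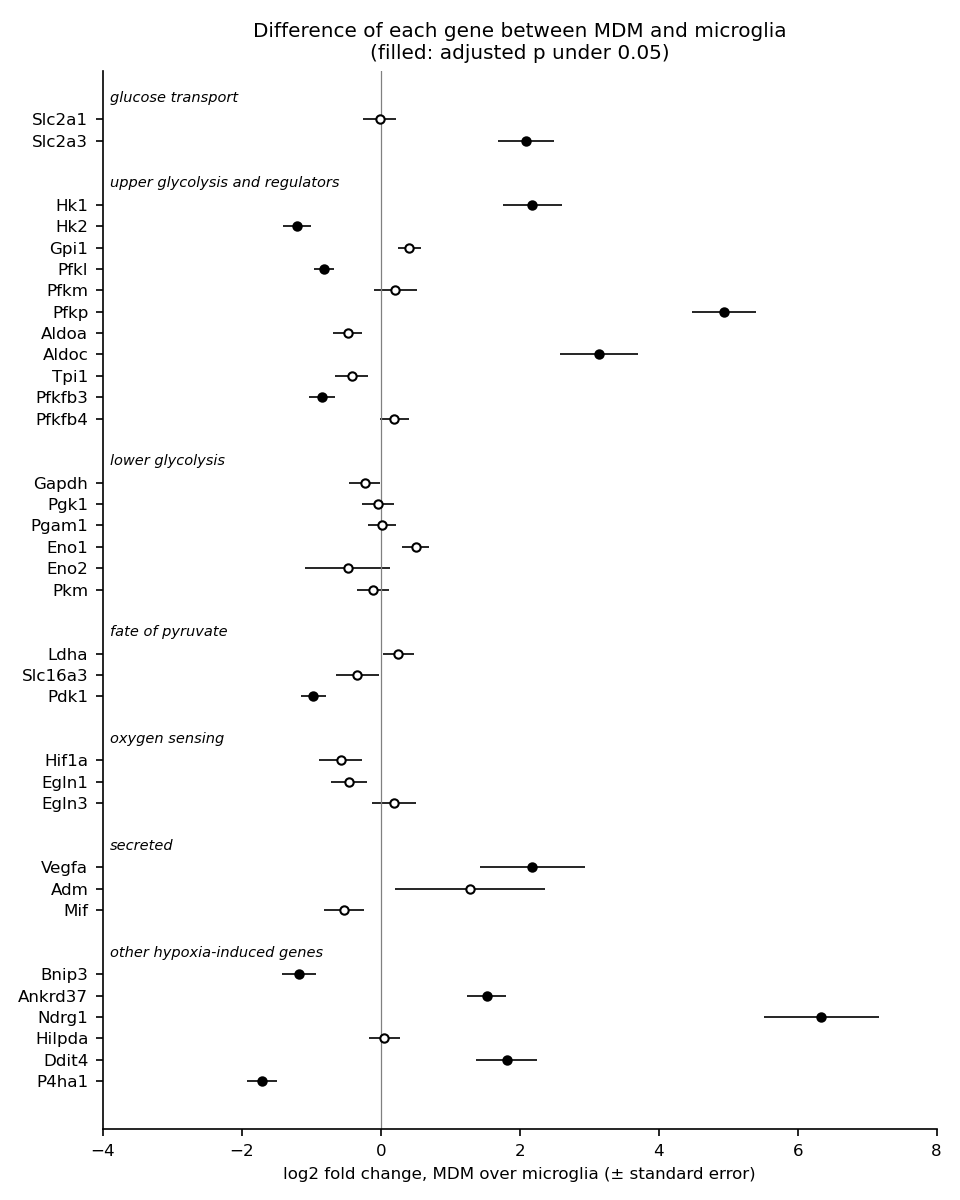
Log2 fold change of each of the 34 genes, MDM over microglia, averaged over the 4 tumour classes, with its standard error as a bar; genes are grouped by role and filled points passed an adjusted p under 0.05. Pfkp (4.94) and Ndrg1 (6.34) lie farthest to the right, P4ha1 (-1.71) farthest to the left, and the 6 genes of lower glycolysis lie between -0.48 (Eno2) and 0.50 (Eno1).

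Glucose enters cells through facilitative transporters. Slc2a1, which encodes the widely expressed transporter GLUT1, had a lowest, median and highest normalised count of 3306, 3742 and 12033 in the 9 MDM libraries, against 2284, 4798 and 8454 in the 12 microglia libraries. The groups overlapped throughout, and the log2 fold change was -0.01 ± 0.24 (SE, adjusted p = 0.97). Slc2a3, encoding GLUT3, a transporter with high affinity for glucose that neurons and leukocytes use, had 106, 1159.6 and 2402 in MDM, against 49.97, 181 and 505 in microglia. It was 4.27-fold higher in MDM on the fitted scale (log2 fold change 2.09 ± 0.40, adjusted p = 0.00034). The 5 MDM libraries rich in T and NK transcripts had 1159.6 to 2402 normalised counts, and the other 4 had 105.7 to 1143. The lowest of the 5 was type 2 transplanted replicate 1, which had the highest T and NK sum (275115). The part of these transcripts in the result was not tested. Without those 5 libraries the change was 0.87 (adjusted p = 0.21), and over the same 3 classes with all libraries it was 1.44 (adjusted p = 0.032). Per kilobase of exon, Slc2a3 made up 20.5 ± 13.3% of the summed level of both transporters in MDM (SD, n = 9), against 3.45 ± 1.98% in microglia (n = 12).

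Hexokinase traps glucose in the cell by phosphorylating it. Hk1, the form bound to mitochondria in most tissues and the main one in brain, had a lowest, median and highest normalised count of 1406, 3571 and 5721 in MDM, against 40.3, 744 and 1170.0 in microglia. Every MDM library was above every microglia library, and the log2 fold change was 2.18 ± 0.43 (adjusted p = 0.00043). Hk2, the inducible form typical of muscle, activated immune cells and tumours, had 182, 719.8 and 1625 in MDM, against 1064, 2221 and 2956 in microglia. It was 2.31-fold lower in MDM (log2 fold change -1.21 ± 0.21, adjusted p = 0.00012), with some overlap, since the microglia library with the least (1064) lay below 4 MDM libraries. The lowest 5 MDM values of Hk2 (182 to 719.8) belonged to the 5 libraries rich in T and NK transcripts, and without them the change was -0.56 (adjusted p = 0.11), against -0.70 (adjusted p = 0.042) over the same 3 classes with all libraries. The log2 ratio of Hk2 to Hk1 within a library ran between -4.79 and -0.09 in MDM and between 0.70 and 4.69 in microglia, without overlap. Per kilobase of exon, Hk1 made up 78.6 ± 16.5% of the 2 hexokinase genes in MDM (SD, n = 9), against 25.6 ± 9.70% in microglia (n = 12).

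Phosphofructokinase commits sugar to glycolysis and is encoded by a liver-type gene (Pfkl), a muscle-type gene (Pfkm) and a platelet-type gene (Pfkp). Pfkp had a lowest, median and highest normalised count of 5051, 9639.6 and 33206 in MDM, against 77.4, 295 and 1836 in microglia. No library of either kind overlapped the other, and Pfkp was 30.6-fold higher in MDM (log2 fold change 4.94 ± 0.46, adjusted p = 1.4e-07). The microglia library with the most Pfkp, type 1 spontaneous replicate 2 (1836), also had the highest MDM marker sum among microglia (15021), and the part of such cells in the result was not tested. Without it and 2 other microglia libraries rich in other cells, Pfkp differed by 5.40 (adjusted p = 8.3e-08), and without the 5 T and NK rich MDM libraries by 4.80 (adjusted p = 0.00019).

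Pfkl, in contrast, had 3503, 5218 and 6068 in MDM and 5558, 9701 and 12293 in microglia. It was 1.76-fold lower in MDM (log2 fold change -0.81 ± 0.14, adjusted p = 0.00016), and only the 3 highest MDM libraries exceeded the lowest microglia library. Pfkm was low in both, at 92.6, 226 and 338 in MDM and 54.8, 177 and 302 in microglia, and was not called (adjusted p = 0.61). Per kilobase of exon, Pfkp held 60.7 ± 13.2% of the phosphofructokinase genes in MDM (SD, n = 9), against 3.72 ± 3.67% in microglia (n = 12), and Pfkl held 37.3 ± 13.1% in MDM, against 94.0 ± 4.10% in microglia.

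**Figure D2:**
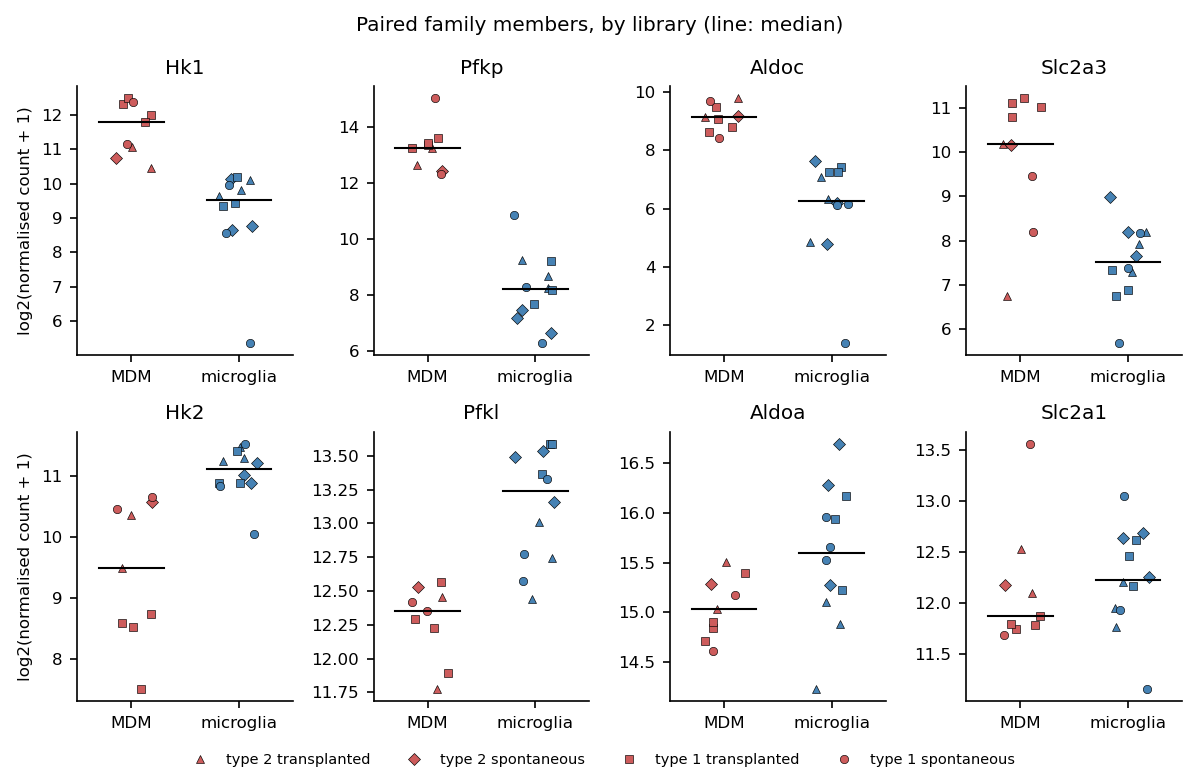
Log2 of the normalised count plus 1 in each library for 4 pairs of related genes, upper gene over lower gene (Hk1 and Hk2, Pfkp and Pfkl, Aldoc and Aldoa, Slc2a3 and Slc2a1), with MDM on the left (n = 9), microglia on the right (n = 12), markers for the tumour class and a line at the median. MDM stand wholly above microglia for Hk1, Pfkp and Aldoc, and the 2 kinds overlap for the other 5 genes.

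Pfkfb3 and Pfkfb4 encode enzymes that set the level of the fructose bisphosphate that activates phosphofructokinase. Pfkfb3 had a lowest, median and highest of 777, 1270.4 and 5712 in MDM, against 2855, 3789 and 5628 in microglia, and was lower in MDM (log2 fold change -0.84 ± 0.19, adjusted p = 0.0012). Without the 5 T and NK rich libraries the change was -0.23 (adjusted p = 0.54), and over the same 3 classes with all libraries it was -0.40 (adjusted p = 0.2), so its call needs the type 1 transplanted class. Pfkfb4 had 946, 3235 and 8133 in MDM, against 2732, 3731 and 6313 in microglia, and was not called (log2 fold change 0.20 ± 0.20, adjusted p = 0.46). Without those 5 libraries it was higher in MDM, by 0.72 (adjusted p = 0.014), and over the same 3 classes with all libraries the change was 0.59 (adjusted p = 0.081).

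Aldolase cuts the phosphorylated sugar into a pair of smaller ones. Aldoc, the brain-type gene best known from astrocytes, had 343, 561 and 881 in MDM and 1.61, 75.9 and 199 in microglia, again with no overlap (log2 fold change 3.14 ± 0.56, adjusted p = 0.00018). Of 7 astrocyte and neural stem cell markers, 2 were lower in MDM and 5 were not called, with sums of 221 to 1710.1 in MDM and 4469 to 12147 in microglia, and the part of such cells in the Aldoc result was not tested. Aldoa, the main aldolase gene of both cell types, had 25025, 33584 and 46628 in MDM and 19213, 49519 and 105931 in microglia and was not called (log2 fold change -0.47 ± 0.21, adjusted p = 0.078). Aldoc therefore remained a small fraction of aldolase RNA, at 1.09 ± 0.48% per kilobase in MDM (SD, n = 9), against 0.13 ± 0.11% in microglia (n = 12). The neighbouring steps were not called either: Gpi1, encoding glucose phosphate isomerase, ranged over 8670.3 to 16025 in MDM and 4386 to 16012 in microglia (adjusted p = 0.052), and Tpi1, encoding triose phosphate isomerase, ranged over 8609 to 21751 in MDM and 5868 to 42625 in microglia (adjusted p = 0.16).

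None of the 6 genes of lower glycolysis passed the test. Gapdh averaged 24997 ± 6835 normalised counts in MDM (SD, n = 9) and 34196 ± 14399 in microglia (SD, n = 12), a log2 fold change of -0.23 ± 0.23. Pgk1, encoding the first ATP-making enzyme of the pathway, averaged 2118 ± 684 in MDM and 2350.4 ± 935 in microglia, and Pgam1 averaged 1682 ± 615 in MDM and 1870.3 ± 580.0 in microglia, with fitted log2 changes of -0.04 ± 0.23 and 0.01 ± 0.20. The enolase gene Eno1 had 20659, 29404 and 41542 in MDM, against 8195, 20907 and 39417 in microglia, and lay at the threshold (log2 fold change 0.50 ± 0.20, adjusted p = 0.0502). Eno2, the neuronal enolase gene, was low and scattered, at 0 to 251 in MDM and 8.38 to 291 in microglia. Pkm, encoding pyruvate kinase, averaged 43247 ± 12264 in MDM and 51056 ± 16042 in microglia (log2 fold change -0.11 ± 0.22, adjusted p = 0.72). Counts per gene do not separate the spliced forms of Pkm.

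Pyruvate can be turned to lactate or enter mitochondria. Ldha, which makes lactate, had 26792, 42376 and 50831 in MDM and 12874, 35427 and 79844 in microglia, and the microglia libraries spanned the whole range of MDM (log2 fold change 0.25 ± 0.22, adjusted p = 0.39). The lactate exporter gene Slc16a3 had 1035, 2912 and 6381 in MDM and 1612, 3800.3 and 6177 in microglia and was not called (adjusted p = 0.4). Pdk1, whose kinase keeps pyruvate out of mitochondria by switching off pyruvate dehydrogenase, had 1232, 1587 and 2374 in MDM and 1552, 3327 and 5359.9 in microglia. It was 1.96-fold lower in MDM (log2 fold change -0.97 ± 0.18, adjusted p = 0.00026), and without the 5 T and NK rich libraries the difference was -0.78 (adjusted p = 0.032). The lowest microglia library, type 1 spontaneous replicate 3 (1552), lay inside the MDM range, and the highest MDM library, type 2 transplanted replicate 3 (2374), exceeded 2 microglia libraries.

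Hif1a and the prolyl hydroxylase genes Egln1 and Egln3 were not called in the average over the tumour classes. Hif1a RNA had a lowest, median and highest of 3381, 6050.3 and 28110.5 in MDM, against 6669, 10377 and 16171 in microglia (log2 fold change -0.58 ± 0.31, adjusted p = 0.14). Spread was wide among MDM, where type 1 spontaneous replicate 2 (28110.5) and type 2 transplanted replicate 3 (18128.5) stood above every microglia library and the other 7 lay at 7963 or less. Hif1a was called lower in MDM without type 1 spontaneous replicate 2 (-0.88, adjusted p = 0.014), without type 2 transplanted replicate 3 (-0.85, adjusted p = 0.02) and in the block fit of paired tumours. Those 2 libraries also had the highest MDM marker sums (218753 and 220582, against 35979 to 76979 in the other 7). Egln1, the main prolyl hydroxylase gene, averaged 1529 ± 826 in MDM and 1564 ± 606 in microglia, and Egln3, itself induced by low oxygen, averaged 491 ± 209 in MDM (SD, n = 9) and 514 ± 436 in microglia (SD, n = 12).

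Among secreted factors, Vegfa, the vessel growth factor gene, had 149.8, 325 and 4423 in MDM, against 4.38, 116 and 688 in microglia. It was higher in MDM (log2 fold change 2.18 ± 0.76, adjusted p = 0.026), and the same pair of libraries that led for Hif1a led here too, with 4423 in type 1 spontaneous replicate 2 and 1899 in type 2 transplanted replicate 3, against 149.8 to 461 in the other 7. Without the 5 T and NK rich libraries the change was 2.41 (adjusted p = 0.13), and over the same 3 classes with all libraries it was 2.04 (adjusted p = 0.1). The call was also lost without type 1 spontaneous MDM replicate 2 (1.57, adjusted p = 0.0963) and without type 2 transplanted MDM replicate 3 (1.90, adjusted p = 0.0688). Adm, encoding the vasodilator peptide adrenomedullin, was near the limit of detection, at 2.44, 32.8 and 132 in MDM and 0, 11.02 and 448 in microglia, and was not called (adjusted p = 0.36). Its highest value, 448, came from type 2 spontaneous microglia replicate 2. Mif, a macrophage cytokine gene, averaged 3297 ± 1158 in MDM and 5545 ± 3244 in microglia (adjusted p = 0.16).

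Of the 6 other hypoxia-induced genes, 3 were higher and 2 lower in MDM. Ndrg1, a stress-induced gene of membrane trafficking and differentiation, had a lowest, median and highest normalised count of 662, 1304 and 3826 in MDM and 0, 28.1 and 214 in microglia. No libraries overlapped, and 3 of the 12 microglia libraries had no reads. The fitted log2 fold change of 6.34 ± 0.83 (adjusted p = 5.9e-06) depends on the count of 1 added before the logarithm, and ran between 4.60 and 7.28 over the alternatives. Ddit4, encoding the mTOR inhibitor REDD1, which glucocorticoids and stress also induce, had 488, 2001 and 14008 in MDM and 90.6, 562 and 2493 in microglia (log2 fold change 1.81 ± 0.44, adjusted p = 0.0025). Its groups overlapped widely, and type 1 spontaneous MDM replicate 2 was far above the rest (14008). Ankrd37, a small ankyrin-repeat gene used as a HIF readout, had 187, 398 and 963 in MDM and 67.2, 142 and 411 in microglia, and was 2.88-fold higher in MDM (adjusted p = 0.00022).

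P4ha1, encoding a subunit of the enzyme that hydroxylates proline in collagen, was the most clearly lower member. It had 1799, 2752 and 7928 in MDM and 5665, 13272 and 16482 in microglia, a 3.27-fold lower level in MDM (log2 fold change -1.71 ± 0.22, adjusted p = 4.5e-06). Only 2 MDM libraries, type 1 spontaneous replicate 2 (7928) and type 2 transplanted replicate 3 (6568), exceeded the lowest microglia library (5665). Without the 5 T and NK rich libraries the fall was still -1.15 (adjusted p = 0.006). Bnip3, whose protein drives removal of mitochondria, had 388, 796 and 3706 in MDM and 1136, 2277 and 5412 in microglia (log2 fold change -1.18 ± 0.24, adjusted p = 0.00066), and without those libraries the change was -0.40 (adjusted p = 0.37) and, over the same 3 classes with all libraries, -0.68 (adjusted p = 0.091). Hilpda, a lipid droplet gene, averaged 479 ± 129 in MDM and 479 ± 294 in microglia and was not called (adjusted p = 0.87).

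Every MDM library lay above every microglia library for 4 members (Hk1, Pfkp, Aldoc and Ndrg1) and below for 0, where 3.8% of all tested genes lay wholly above and 3.06% wholly below. Leaving out the 5 T and NK rich libraries, and with them the type 1 transplanted class, 10 members were called, where 24.6% of all genes were, and 9 of them were among the 14 and in the same direction. Over the same 3 classes with all libraries in the fit, 11 members and 31.2% of all genes were called. Leaving out the 5 libraries ended the calls of Slc2a3, Hk2, Pfkfb3, Bnip3 and Vegfa and added that of Pfkfb4. The fit over the same 3 classes with all libraries ended only those of Pfkfb3, Bnip3 and Vegfa.

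**Figure D3:**
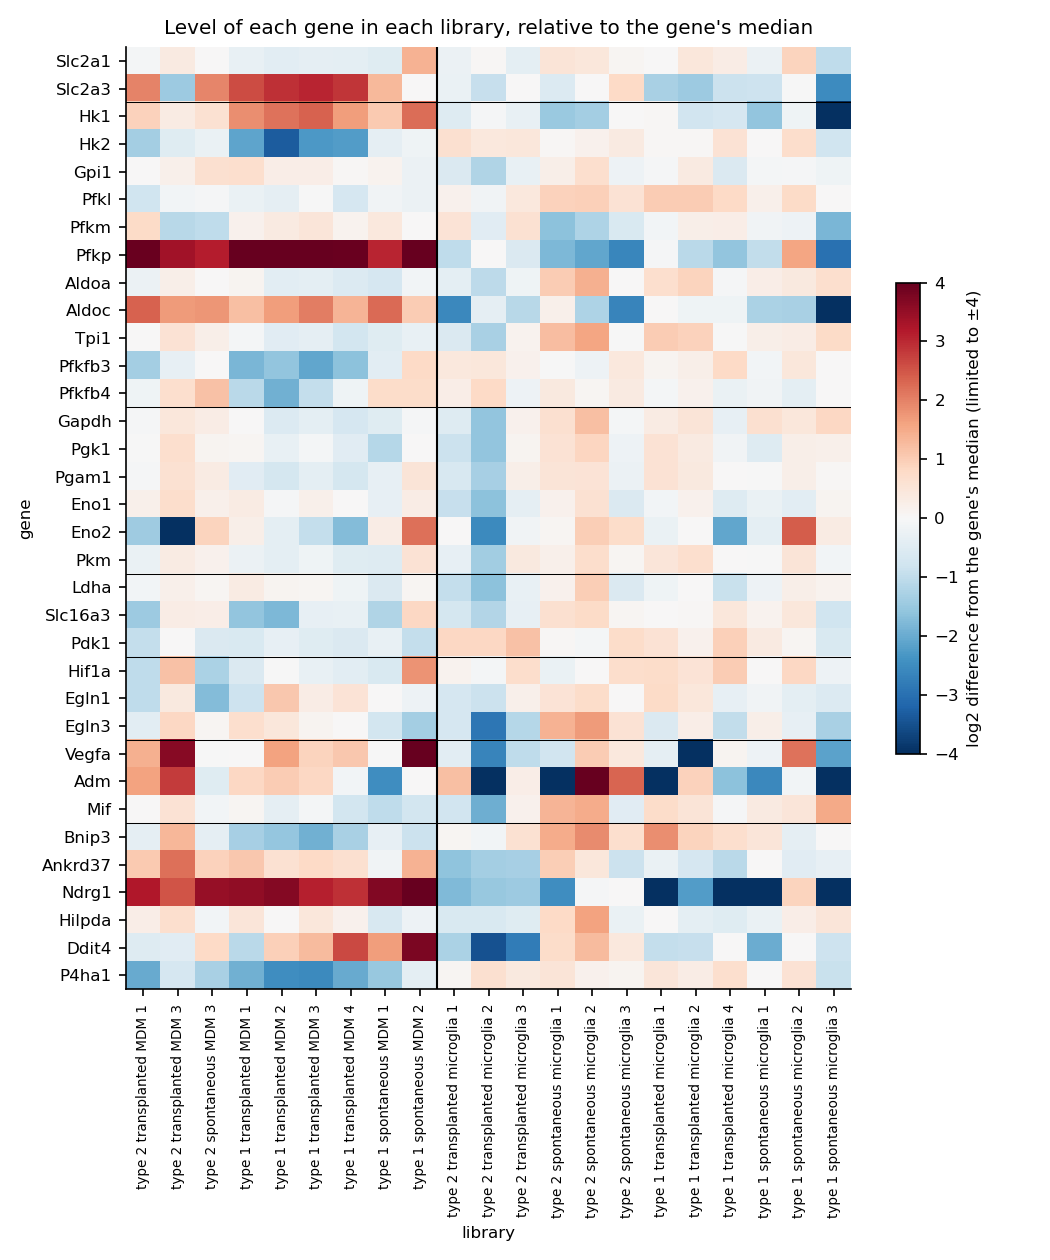
Difference of each gene from its own median over the 21 libraries, in log2 of the normalised count plus 1 (colours limited to ±4), with one row per gene in order of role and one column per library, MDM left of the black line and microglia right of it. Hk1, Pfkp, Aldoc and Ndrg1 are red across all 9 MDM columns, Hk2, Pfkfb3 and Bnip3 are bluest in the 4 type 1 transplanted MDM columns, and type 2 transplanted microglia replicate 2 is blue for most glycolytic genes.

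Genes of the same pathways outside the 34 were counted by list, and each count stands beside the 42.7% of all genes called (23% higher and 19.8% lower in MDM). Of 22 tested further glycolysis genes, 4 were higher and 9 lower in MDM, among them Ldhb, the other lactate dehydrogenase subunit (log2 fold change -3.40 ± 0.31), the fructose transporter Slc2a5 (-6.10 ± 0.64) and the muscle enolase Eno3 (1.78 ± 0.18). Of 11 genes for pyruvate entry into mitochondria 1 was higher (Pdha1, 1.25 ± 0.22) and 1 lower (the pyruvate carrier gene Mpc1, -0.60 ± 0.21). Of 7 pentose phosphate pathway genes, G6pdx (0.68 ± 0.15) and Taldo1 (0.82 ± 0.20) were higher and Pgd (-0.48 ± 0.18) was lower. Of 8 further genes of the HIF system, Egln2 was higher (0.44 ± 0.12), and Vhl (-0.52 ± 0.13) and Hif3a (-3.00 ± 0.77) were lower. Of 32 further hypoxia-induced genes 4 were higher and 6 lower, with Bhlhe40 (3.59 ± 0.23) on one side and Plod1 (-2.45 ± 0.18) and Lox (-4.51 ± 0.68) on the other. The list medians were -0.68 for further glycolysis, 0.19 for pyruvate entry, 0.34 for the pentose phosphate pathway, 0.39 for the HIF system and -0.23 for hypoxia-induced genes, against 0.07 over all genes.

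The same difference was then taken inside each tumour class, in the fit that shares 1 spread over the 8 groups. In type 2 transplanted tumours (2 MDM and 3 microglia libraries), 4 members were higher and 4 lower in MDM, where 18% of all genes were called (9.52% higher, 8.45% lower). Ankrd37 led there, with 434 and 963 normalised counts in MDM and 67.2, 81.5 and 83.1 in microglia (log2 fold change 3.05 ± 0.54, adjusted p = 0.001). Eno1 was higher in MDM in this class, at 29381 and 41542, against 13523, 8195 and 20255 in microglia (1.42 ± 0.38, adjusted p = 0.016). Pfkp and Aldoc were also higher, and P4ha1, Pdk1, Hk2 and Pfkfb3 lower. Of the 5 fits that left out 1 library, 4 ended the call of Aldoc (adjusted p up to 0.21), 3 that of Pfkfb3 (up to 0.34), 2 each those of Eno1 (up to 0.11) and Hk2 (up to 0.24), and 1 each those of Pfkp, P4ha1 and Pdk1. The median member differed by 0.82 on the log2 scale, against 0.01 over all genes, and 25 of 34 had a positive estimate. MDM replicate 1 was rich in T and NK transcripts, and in the fit without the 5 libraries rich in them only 1 member was called, Ankrd37, with a difference of 3.63 (adjusted p = 0.018), where 4.14% of all genes were called.

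In type 1 transplanted tumours (4 MDM and 3 microglia libraries), 5 members were higher and 9 lower in MDM, where 34.1% of all genes were called (18.2% higher, 15.9% lower). Hk2 had 426, 182, 368 and 388 normalised counts in MDM and 1896, 1895 and 2743 in microglia, a 6.598-fold lower level in MDM (log2 fold change -2.72 ± 0.34, adjusted p = 5.9e-06). Pfkfb3 had 915, 1086, 777 and 1046 in MDM and 3542, 3868 and 5628 in microglia (-2.17 ± 0.30, adjusted p = 1.9e-05). Bnip3 had 587, 497, 388 and 589 in MDM and 5349, 2721 and 2348 in microglia (-2.67 ± 0.39, adjusted p = 3.7e-05). All of these MDM values lay below all of the microglia values of the class, in genes picked by their calls on the same values. The share of all genes that separate in this way was not computed. Slc2a3 went the other way, with 1775, 2220.4, 2402 and 2099 in MDM and 117, 107 and 159.5 in microglia (4.06 ± 0.65, adjusted p = 8.3e-05). P4ha1, Pfkl, Pdk1, Pfkfb4, Tpi1 and Pgam1 were also lower, and Pfkp, Ndrg1, Hk1 and Ankrd37 higher. The calls of Pfkfb4, Tpi1 and Pgam1 were each lost in 9 of 18 alternatives, with adjusted p up to 0.35, 0.69 and 0.49, and in 4, 5 and 6 of the 7 fits that left out 1 library. Every MDM library of this class was rich in T and NK transcripts (200979 to 229830), so that the class and this content cannot be told apart.

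In the type 2 spontaneous class the only MDM library gave calls for Pfkp (5434 in MDM and 176, 144 and 99.2 in microglia, log2 fold change 5.31 ± 1.12) and for Egln1, which was lower in MDM (442, against 2172, 2477 and 1478 in microglia, -2.17 ± 0.63, adjusted p = 0.032). The call of Egln1 was lost in 6 of 13 alternatives (adjusted p up to 0.2), among them the fits without microglia replicate 1 and without microglia replicate 2. The spread of that lone library was taken from the other groups, and 10.7% of all genes were called. In type 1 spontaneous tumours (2 MDM and 3 microglia libraries), 5 members were higher in MDM and 0 lower, where 13.4% of all genes were called (8.52% higher). They were Pfkp (5.18 ± 0.89), Ndrg1 (7.95 ± 1.59), Hk1 (3.80 ± 0.83), Ddit4 (3.65 ± 0.85) and Aldoc (4.50 ± 1.09). Hk1 had 2298 and 5311 normalised counts in MDM and 377, 1006 and 40.3 in microglia, and Ddit4 had 3296 and 14008 in MDM and 261, 1035 and 585 in microglia. Without MDM replicate 2, which had the higher value of Hk1, Ddit4, Pfkp and Ndrg1, none of these calls held, with 1 MDM library left. Pfkp was thus called in each of the 4 classes, the only one of the 34 members for which this held. It differed by 4.21 in type 2 transplanted, 5.31 in type 2 spontaneous, 5.04 in type 1 transplanted and 5.18 in type 1 spontaneous tumours. The share of all genes called in each of the 4 classes was not computed.

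**Figure D4:**
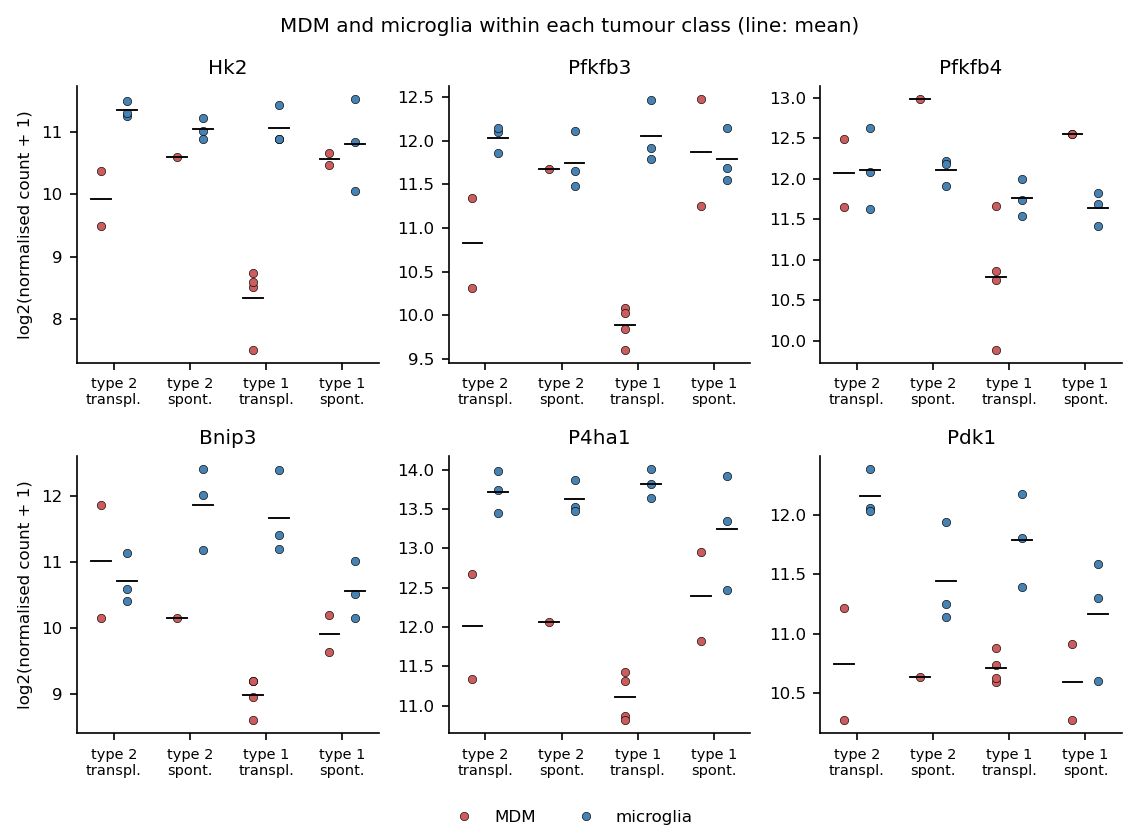
Log2 of the normalised count plus 1 for 6 genes in each tumour class, with MDM to the left of microglia, one point per library and a line at the mean of the group. The type 1 transplanted MDM points of Hk2 (182 to 426), Pfkfb3 (777 to 1086) and Bnip3 (388 to 589) lie below all other points of their panels.

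The tumour type was compared among MDM of transplanted tumours, 2 libraries of type 2 against 4 of type 1. In type 2 tumours 3 members were higher and 1 was lower, where 5.91% of all genes were called (2.96% in each direction). Bnip3 had 1142 and 3706 normalised counts in type 2 and 587, 497, 388 and 589 in type 1 MDM (log2 fold change 2.02 ± 0.45, adjusted p = 0.013). Hk2 had 719.8 and 1321 in type 2 and 426, 182, 368 and 388 in type 1 (1.59 ± 0.38, adjusted p = 0.02). Pfkfb4 had 3224 and 5752 in type 2 and 1720.4, 946, 1861 and 3235 in type 1 (1.28 ± 0.37, adjusted p = 0.048), with overlap between 1 library on each side. Slc2a3 had 1159.6 and 106 in type 2 and 1775, 2220.4, 2402 and 2099 in type 1 (-2.59 ± 0.74, adjusted p = 0.045). In each of the 4 genes type 2 replicate 3, which was poor in T and NK transcripts (28754), lay farther from the type 1 values than replicate 1, which was rich in them (275115). Replicate 3 also had the highest microglia marker sum among MDM (63976.5, against 5977 in replicate 1 and 4599 to 5318 in type 1), and 3 of the 5 microglia markers were called higher in type 2. Without replicate 3, which leaves 1 type 2 library, none of the 4 calls held. The fitted differences were then 1.17 for Bnip3, 1.15 for Hk2, 0.86 for Pfkfb4 and -0.86 for Slc2a3. The parts of T and NK and of microglia transcripts in these differences were not tested.

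The model was compared among MDM of type 1 tumours, 4 transplanted libraries against 2 spontaneous ones. Hk2, Pfkfb3, Pfkfb4 and P4ha1 were lower in transplanted tumours and 0 members were higher, where 13.7% of all genes were called (7.96% lower, 5.79% higher). Hk2 had 426, 182, 368 and 388 in transplanted and 1418 and 1625 in spontaneous MDM (log2 fold change -2.22 ± 0.38, adjusted p = 0.00084). Pfkfb3 had 915, 1086, 777 and 1046 in transplanted and 2434 and 5712 in spontaneous MDM (-1.97 ± 0.34, adjusted p = 0.00088). Pfkfb4 had 1720.4, 946, 1861 and 3235 in transplanted and 6019 and 5983 in spontaneous MDM (-1.76 ± 0.37, adjusted p = 0.0039), and P4ha1 had 2752, 1876, 1799 and 2557 in transplanted and 3631 and 7928 in spontaneous MDM (-1.28 ± 0.40, adjusted p = 0.039). No transplanted library reached a spontaneous one in any of these genes, which were picked by their calls on the same values. The share of all genes that separate in this way was not computed. The call of P4ha1 was lost in 6 of 15 alternatives, among them those without transplanted replicate 2 (adjusted p = 0.09), without transplanted replicate 3 (adjusted p = 0.091) and without spontaneous replicate 2 (-0.72, adjusted p = 0.49). The T and NK sums were 200979 to 229830 in the transplanted and 9275 and 19447 in the spontaneous libraries, so that the model and this content cannot be told apart here. B cell marker sums were 16801 to 40711 in transplanted and 2068 and 618 in spontaneous MDM (5 of 5 markers called higher), and microglia marker sums were 4599 to 5318 in transplanted and 48720.2 and 18588 in spontaneous MDM (3 of 5 called lower), and their part was not tested. Slc2a3, at 1775, 2220.4, 2402 and 2099 in transplanted and 711 and 294 in spontaneous MDM, did not pass (adjusted p = 0.054).

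Whether the gap between MDM and microglia differed between tumour classes was tested as an interaction. Between transplanted type 2 and type 1 tumours, Bnip3 was the 1 member called, where 0.749% of all genes were called: MDM exceeded microglia by a fitted 0.30 in type 2 and differed by -2.67 in type 1 (difference 2.97 ± 0.61, adjusted p = 0.031). Between transplanted and spontaneous type 1 tumours, Pfkfb3 (difference -2.24 ± 0.47, adjusted p = 0.012), Hk2 (-2.48 ± 0.52, adjusted p = 0.013) and Pfkfb4 (-1.88 ± 0.51, adjusted p = 0.042) were called, where 4.51% of all genes were. The fitted log2 difference of MDM from microglia in transplanted and in spontaneous type 1 tumours was -2.17 and 0.07 for Pfkfb3, -2.72 and -0.24 for Hk2, and -0.97 and 0.91 for Pfkfb4. The calls rest on few libraries: without type 1 spontaneous MDM replicate 2 none of the calls of this second comparison held. Of the 12 fits that left out 1 library, 11 ended the call of Pfkfb4, which was lost in 16 of 22 alternatives in all. In the first comparison 8 of 12 such fits ended the call of Bnip3. Of 5 microglia markers 3 were called lower in the second comparison and 0 in the first, and 2 of 5 B cell markers and 1 of 12 T and NK markers were called higher in the second.

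Among microglia, the members barely separated the tumour types. Between type 2 and type 1 microglia (6 libraries each) limma called 0 of 34 members and 0.47% of all genes, and 1 member had an unadjusted p under 0.05, where 8.89% of all genes did. That member was Ndrg1, with 19.5, 40.4 and 115 as lowest, median and highest in type 2 and 0, 1.61 and 214 in type 1 (log2 fold change 3.24 ± 1.01, adjusted p = 0.24).

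Between transplanted and spontaneous microglia (6 libraries each) limma also called 0 members, where 1.84% of all genes were called. An unadjusted p under 0.05 was reached by 13 members, 3 higher and 10 lower in transplanted tumours, where 19.4% of all genes reached it. The median member differed by -0.38, against 0.04 over all genes. Egln3 came nearest, with 61.7, 261 and 557 in transplanted and 187, 619 and 1506 in spontaneous microglia (-1.38 ± 0.38, adjusted p = 0.07). Gapdh had 9116, 25988 and 38427 in transplanted and 25440.1, 42326 and 62582 in spontaneous microglia (-0.85 ± 0.28, adjusted p = 0.11), and Ldha had 12874, 27229 and 40392 in transplanted and 27273, 44907 and 79844 in spontaneous microglia (-0.79 ± 0.27, adjusted p = 0.13). Without type 2 spontaneous microglia replicate 3 there were 9 members called, 1 higher and 8 lower, where 8.93% of all genes were called, and leaving out any of the other 11 microglia libraries gave 0 or 1. Of 12 T and NK markers 7 were called higher in transplanted microglia, with sums of 271 to 5216 in transplanted and 97.3 to 330.5 in spontaneous microglia, and 1 of 6 MDM markers was called lower, and their part was not tested. In the interaction of tumour type and model among microglia, limma called 0 members and 0.0116% of all genes, and 11 members had an unadjusted p under 0.05, all with negative estimates, where 6.32% of all genes had one. Bnip3 (-2.26 ± 0.60, adjusted p = 0.36) and Egln3 (-2.83 ± 0.77, adjusted p = 0.37) had the smallest p.

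Single libraries carried much of the spread among microglia. Type 2 transplanted replicate 2 was the lowest microglia library for 16 of 34 members, among them all of Aldoa, Tpi1, Gapdh, Pgk1, Pgam1, Eno1, Ldha and Mif, 8 genes put together after their values were seen. Averaged over these 8 genes it lay 1.58 log2 units below the mean of the 12 microglia libraries. Type 2 spontaneous replicate 2 was the highest for 14 members, among them 6 of these 8, and lay 1.02 above. All 8 genes lay below their mean in type 2 transplanted replicates 1 and 2, type 2 spontaneous replicate 3 and type 1 transplanted replicate 4, and all 8 lay above it in type 2 spontaneous replicates 1 and 2, type 1 transplanted replicates 1 and 2 and type 1 spontaneous replicate 3. Replicate 2 of type 2 transplanted microglia had the highest summed neutrophil markers (5032, against 0 to 1106 in every other library of either kind). Its astrocyte and neural stem cell sum (12147) was the highest too. So was its microglia marker sum (578284, against 155767 to 412989 in other microglia libraries). Their part was not tested. How often each library was lowest or highest over all tested genes was not computed.

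**Figure D5:**
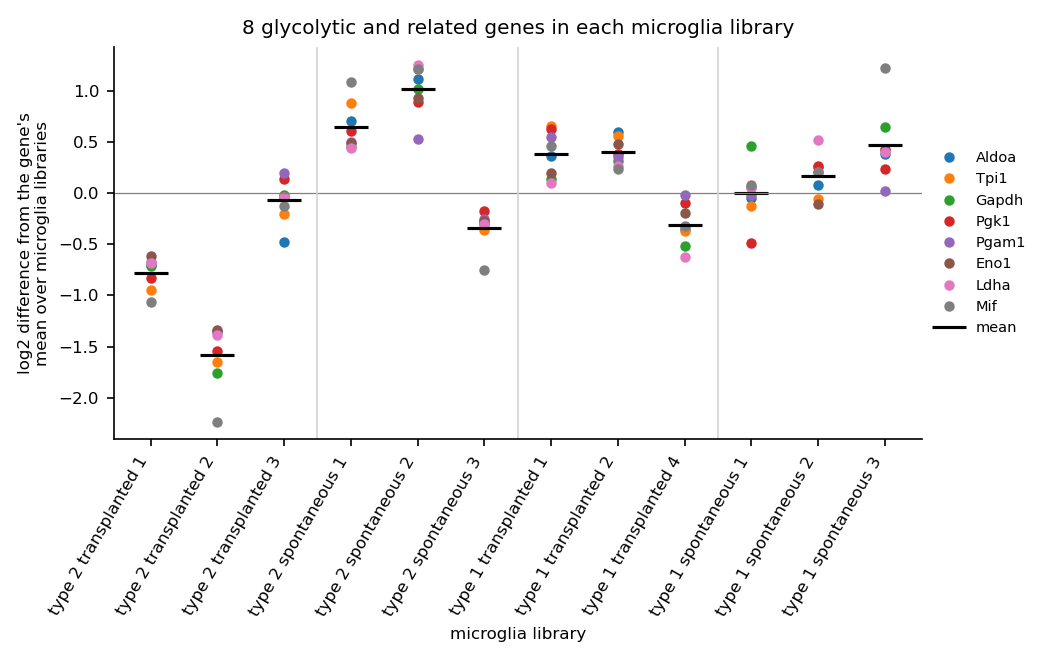
Log2 difference of 8 genes from their mean over the 12 microglia libraries, one colour per gene and a black bar at the mean of the 8, with libraries grouped by tumour class. Type 2 transplanted replicate 2 lies lowest (mean -1.58) and type 2 spontaneous replicate 2 highest (mean 1.02), and replicates of both type 2 classes lie farther apart than those of the type 1 classes.

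How reads were assigned limits some of these values. The library kit does not mark strand, so reads from a gene and a partner on the opposite strand cannot be told apart. Exons overlapped those of an opposite-strand gene over 748 bases in Pfkp (Pitrm1), 504 in Bnip3 (Gm45507), 419 in Ndrg1 (Gm17035 or Gm2895), 356 in Gpi1 (Gm26762) and 186 in Ankrd37 (Ufsp2 or Lrp2bp). Hif1a overlapped Gm15283 and Gm49321, and Pkm overlapped Gm49759 on its own strand. Gapdh, Pgk1, Eno1, Ldha, Aldoa, Pgam1 and Tpi1 have near-identical processed copies in the mouse genome, and how reads shared with them were counted was not given in the sources used here, so the levels of these genes are less certain than the others.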

How the data were processed

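RNA of sorted cells was made into libraries with a low-input full-length cDNA kit, per the labels' protocols. The authors' tools and build were STAR 2.7.8a, DESeq2 and mm10, per the submitters' processing notes, and the counter, its annotation and its strand setting were not given in the sources used here. The authors deposited 1 value on a log2 scale for each of 30749 genes in 21 libraries, in which genes with 0 reads take the value 4.22, which is the form that the authors' DESeq2 gives after a variance-stabilising transformation. This transformation was inverted in closed form. Every value then gave a whole number of reads to within 1.1e-07, and the size factors matched median-of-ratios factors, so reads and normalised counts were used.

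Genes with at least 10 normalised counts in 3 or more libraries (17216, all 34 members among them) were tested with limma 3.58.1 in R 4.3.3 (limma-trend) on log2(normalised count + 1), with 1 mean for each of the 8 groups, and p-values were adjusted over all tested genes by the Benjamini-Hochberg method. Fold changes are on that scale and understate changes of low genes. The 12 comparisons share libraries, so they are not independent. The fit was tested on simulated data. Read depth limits low genes such as Adm and Eno2, and no library pair was identical. Gene lengths and overlaps come from the GENCODE annotation of the same build, as unions of exons, and promoter sequences from RefSeq (GRCm38.p6). Members, gene lists and isoenzyme pairs were chosen with earlier results of these data known. Members called in any comparison, with Hif1a, Vegfa, Ldha and Slc2a1, are described by their values in the libraries or by the lowest, median and highest, and the alternatives were followed gene by gene for each called member and for Hif1a, Ldha and Slc2a1. Lists for other members of the same pathways and for markers of other cell types were counted in the same fit. The alternatives tried were another pseudocount (8), no filter and a filter at 50, other scalings, voom on the recovered reads, the deposited values, only the groups compared, a replicate block and leaving out each library. The 4 samples from normal brain were not analysed here. One marker of the microglia list is not reported here, and its sums leave it out.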

Additional observations from a re-analysis of the deposited data

Results flagged for a closer look

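Tests of a difference between differences singled out 4 results. For Bnip3 the MDM minus microglia difference was larger in type 2 than in type 1 transplanted tumours by 2.97 ± 0.61 on the log2 scale (SE, adjusted p = 0.031). Between transplanted and spontaneous type 1 tumours the same difference changed by -2.48 ± 0.52 for Hk2 (adjusted p = 0.013), by -2.24 ± 0.47 for Pfkfb3 (adjusted p = 0.012) and by -1.88 ± 0.51 for Pfkfb4 (adjusted p = 0.042). The call of Pfkfb4 was lost in 16 of 22 alternatives and in 11 of the 12 fits that left out 1 library, that of Bnip3 in 10 of 22 and 8 of 12, that of Hk2 in 2 of 22 and that of Pfkfb3 in 1 of 22. In the type 1 transplanted MDM libraries, on which all 4 rest, the sum of T and NK markers was 200979 to 229830 and that of microglia markers 4599 to 5318, the lowest among MDM, and B cell markers summed to 16801 to 40711. Their part was not tested. The 4 type 1 transplanted MDM libraries were also searched for a value far from the others, gene by gene over the 34 members, and 0 were found. Groups with fewer than 4 libraries could not be searched. Without type 1 spontaneous MDM replicate 2, with 1 library left, the differences were -2.38 for Hk2, -1.62 for Pfkfb3 and -1.89 for Pfkfb4. Without type 2 transplanted MDM replicate 3, with 1 library left, that of Bnip3 was 2.12.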

How the results depend on the processing

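Of the 14 members called between MDM and microglia, 9 kept their call in all 33 alternatives, and Slc2a3, Hk2, Pfkfb3, Bnip3 and Vegfa lost it without the 5 MDM libraries rich in T and NK transcripts. Averaging over the other 3 classes with all libraries ended the calls of Pfkfb3, Bnip3 and Vegfa. Vegfa also lost it with no filter, with the replicate block (1.71, adjusted p = 0.084), with voom and without either of 2 single MDM libraries, over an adjusted p of 0.0044 to 0.13. No called result changed sign. Of members not called there, only Hif1a, Ldha and Slc2a1 were followed through all 33 alternatives. Hif1a gained a call in 3 (-0.88 to -0.04 over all 33), Ldha in 1, quantile normalisation (0.56), and Slc2a1 in 0. Pfkfb4 gained a call without the 5 MDM libraries, and calls gained by other members are not listed here. The median of all genes between MDM and microglia was 0.07, 0.30 with libraries scaled to the same total and -0.07 after quantile normalisation. The count of members called in type 2 spontaneous tumours was 1 with no filter and 1 with the same total. For type 2 against type 1 transplanted MDM it was 2 with no filter, 2 with the same total and 1 with only the groups compared. With only the groups compared it was 0 in type 1 spontaneous tumours. With the same total, 0 members were called for cell type by tumour type and 1 for cell type by model. The share of all genes is not given for these settings, so their counts are not results about the members alone. Without the 5 MDM libraries, 1 was called in type 2 transplanted tumours, where 4.14% of all genes were. Without 3 microglia libraries rich in other cells, 1 was called between the tumour types in microglia (0.0298% of all genes). For cell type by tumour type it was then 0 (0% of all genes). Both exclusions and the 3-class average were chosen after seeing the data.

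Leaving out each library gave 14 to 17 members between MDM and microglia, 3 to 10 in type 2 transplanted, 1 to 3 in type 2 spontaneous, 11 to 14 in type 1 transplanted and 0 to 6 in type 1 spontaneous tumours. It gave 0 to 1 for tumour type and 0 to 9 for model in microglia, 0 to 7 for type and 3 to 6 for model in MDM, 0 for tumour type by model, 0 to 3 for cell type by tumour type and 0 to 5 for cell type by model. The libraries whose absence moved these counts most were type 1 spontaneous MDM replicates 1 and 2, type 2 transplanted MDM replicates 1 and 3 and type 2 spontaneous microglia replicate 3. The share of all genes called moved too, between 0.647% and 8.93% for model in microglia, so these ranges are not results about the members alone. Comparisons with 1 remaining library assume that it varies like the other groups.

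Replicate numbers were not used as pairs in the main fit. Deviations of same-numbered MDM and microglia from their group means correlated at 0.24 and 0.23 in type 1 spontaneous tumours. They correlated at 0.07, 0.08 and 0.05 in type 1 transplanted and at 0.04 and 0.05 in type 2 transplanted tumours. Each correlated best with its own number. In classes with 2 MDM libraries their deviations mirror each other, so these values are not independent. With the number as a block, 16 members were called between MDM and microglia, and 5 for cell type by model, and the share of all genes is not given here. The block was fitted as 1 correlation shared by all genes (0.14) or as a fixed effect over 8 same-numbered pairs. Only the first covers cell type by model. Under the fixed effect Vegfa lost its call between MDM and microglia and Hif1a gained one. Depth limits what Adm and Eno2 can show. Restricting the pooled comparison to the groups compared is the same fit.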

Other observations

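Among pathway genes outside the 34, in transplanted against spontaneous type 1 MDM, 3 of 32 further hypoxia-induced genes were higher and 7 lower, where 5.79% of all genes were called higher and 7.96% lower. The lysyl hydroxylase genes split, with Plod2 higher by 5.84 ± 0.92 on the log2 scale (SE, adjusted p = 0.00048) and Plod1 lower (-2.41 ± 0.33, adjusted p = 0.00019). Car12, a carbonic anhydrase gene, was higher (4.85 ± 1.00, adjusted p = 0.0034). In the HIF system Epas1, encoding HIF-2α, was higher (3.83 ± 1.13, adjusted p = 0.03), and Vhl (-0.96 ± 0.24, adjusted p = 0.014) and Cited2 (-1.90 ± 0.61, adjusted p = 0.045) were lower. The transplanted libraries of this comparison were those rich in T and NK transcripts.

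In transplanted against spontaneous microglia, 1 of these 32 genes was called, the hypoxia-inducible repressor gene Bhlhe40, which was lower (-1.96 ± 0.28, adjusted p = 0.0013), where 1.84% of all genes were called in either direction. In the same comparison 7 of 12 T and NK markers were called higher and 1 of 6 MDM markers lower, and their part was not tested. Between MDM and microglia, Bhlhe40 was higher and Plod1 lower in MDM in each of the 4 tumour classes, with Bhlhe40 at 4.46 ± 0.45 in type 2 transplanted, 2.73 ± 0.57 in type 2 spontaneous, 3.60 ± 0.38 in type 1 transplanted and 3.57 ± 0.45 in type 1 spontaneous tumours. Ldhb and Slc2a5 were lower in MDM in each class too, Ldhb by -2.73 ± 0.60, -2.81 ± 0.76, -5.15 ± 0.50 and -2.91 ± 0.60 in the same order of classes. These genes were picked for display as the called genes with the smallest p of their lists. The share of all genes called in each of the 4 classes was not computed.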
